A study of Arabidopsis thaliana with 6 samples.

Results

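The array titled man was compared with the arrays titled wat, OMG and DOG as 1 set, to ask which transcripts read differently in man than in wat and both analog arrays. These are 4 of the 6 arrays of the series; the other 2 are titled glc and zer, and their signals are given for context only. Each array holds RNA from entire seedlings of Arabidopsis thaliana, accession Col-0, sampled at growth stage 1.02. After 72 h at 4 °C they grew at 23 °C under continuous light, on agar (0.8%) with a reduced strength of Murashige and Skoog salts. All groups shared these conditions and no mutation or transgene is named in the labels. The groups differ only in their titles, which give neither dose nor duration, and the growth notes of all 6 list no treatment. The series title names glucose analogs, and OMG and DOG are read here as those analogs. The titles man, wat and zer are kept as given. In particular man could stand for mannitol, often used as an osmotic control, or for mannose, a hexose that plants phosphorylate, and the labels do not settle this.

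There was 1 man array, so every value is a description, with no test, no p-value and no replicate check. The 3 arrays on the other side are single arrays of different treatments. Their SD is given as a scale of noise, and it includes whatever differs between wat, OMG and DOG. Signals under 28.6, the highest of the 4 arrays' 40th percentiles, were raised to that value, and a fold that rests on a raised signal is written as at least N-fold. Of 22746 probe sets, 12306 reached the median of their array in at least 1 of the 4 arrays and were compared. The difference is the log2 signal in man minus the mean log2 signal of wat, OMG and DOG.

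As background, seedlings balance growth against stored and supplied sugar. When sugar is short, the SnRK1 kinase and its bZIP partners turn on genes that break down amino acids and, through autophagy, the cell's own contents. Osmotic stress acts partly through abscisic acid and switches on protective proteins such as dehydrins, while jasmonate and ethylene together switch on defensins, small antifungal proteins. Plastids carry their own genome, whose genes are mostly transcribed in clusters and cut into separate messages. In plants most plastid messages carry no stable poly(A) tail.

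The labelled tissue matched its markers. PYK10, a beta-glucosidase abundant in seedling roots, read 2637.8 in man and between 2765.7 and 3009.9 in wat, OMG and DOG. Of 8 nuclear photosynthesis genes, 7 read at least 1688.7 on each of the 4 arrays, and the exception was LHCB4.3 at 259.8 in man and 279.1 to 302.6 in the 3. The root hair genes EXPA7 and EXPA18 read between 28.4 and 43.4 on the 4 arrays, close to the floor. No gene of the seed marker list had a probe set named for it alone. For the actin control, the 3' probe set read 4.55 times its 5' partner in man, inside the range of 3.46 (DOG) to 4.66 (wat). A second actin pair read 1.72 in man and 1.55 to 1.62 in the 3, and a ubiquitin pair read 2.48 in man and 2.24 to 2.30 in the 3.

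The man array stood somewhat farther from the 3 arrays than they stood from each other. The SD of the log2 differences was 0.271 for man minus wat, 0.259 for man minus OMG and 0.259 for man minus DOG. Among the 3 arrays it was 0.241 for wat minus OMG, 0.244 for wat minus DOG and 0.211 for OMG minus DOG. Counted in pairs, 44 probe sets were at least 2-fold apart between man and wat, 31 between man and OMG and 39 between man and DOG. The same count was 15 for wat and OMG, 26 for wat and DOG and 7 for OMG and DOG.

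Differences of 2-fold or more were few and lay mostly on the higher side. In man 17 probe sets (0.138% of those compared) were at least 2-fold above the mean of the 3 and above each of them, and 3 (0.0244%) were at least 2-fold below. Of these, 10 higher and 2 lower were named for a single gene. AT1G60730, at 1.97-fold higher, and AT3G03790, at a fold just under 2 on the lower side, were the nearest named genes outside this limit. A looser rule asked for 1.5-fold from each of the 3 arrays separately, so that 1 stray array among the 3 cannot meet it. It took 42 probe sets higher in man (0.341%) and 34 lower (0.276%), of which 27 and 19 were named for a single gene. The median signal of the 42 was 117.3 in man and 51.6 over the 3 arrays, and that of the 34 was 39.9 in man and 74.0 over the 3. In 39 of the 42, man was also the highest of all 6 arrays, and in 34 of the 34 it was the lowest. Of the 42, 10 folds are lower bounds because a signal lay at the floor, as are 4 of the 34. With 2 arrays in place of 3 the looser rule is easier to meet. It then took 80 higher and 66 lower without wat, 61 and 76 without OMG, and 66 and 75 without DOG. With no floor the looser rule took 46 higher and 54 lower, so the side with more probe sets at 1.5-fold depended on the setting. At 2-fold the lower count was 6 without wat and 5 without OMG.

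The spread of wat, OMG and DOG sets the scale for these differences. In 20 bins of equal size the root mean square SD of the 3 arrays was 0.22 on the log2 scale in the dimmest bin and 0.09 in the brightest. The 42 higher probe sets differed by 2.69 to 15.6 times the SD of their own bin, with a median of 5.26 times. For the 34 lower ones the ratio ran from -7.62 to -2.87. Both sets were chosen for lying 1.5-fold from each array, and no bin SD was above 0.22. The rule thus set a minimum for these ratios, and they are no separate check of the differences.

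**Figure D1:**
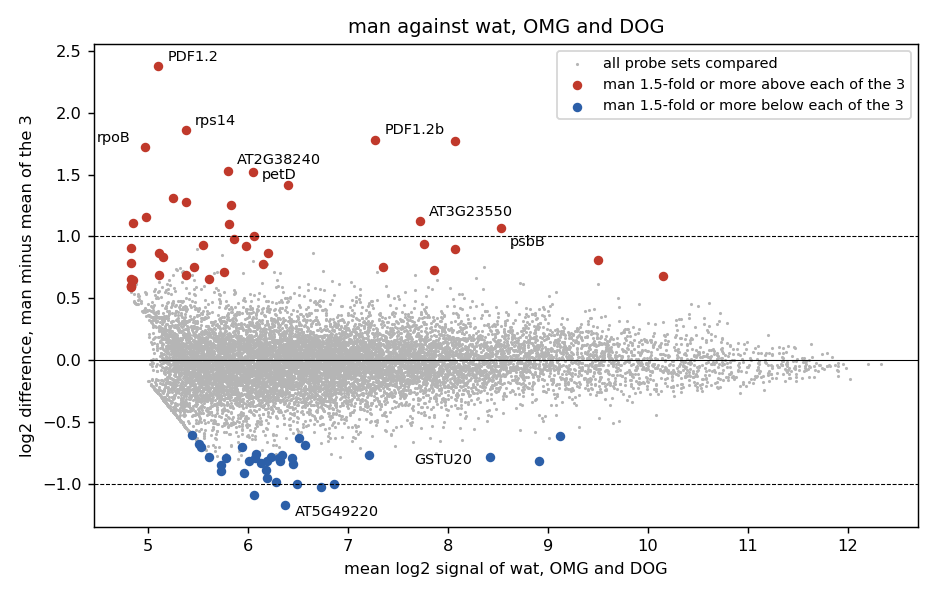
Each point is 1 of the 12306 probe sets compared; the x axis gives the mean log2 signal of wat, OMG and DOG and the y axis the log2 difference of man from that mean, with dashed lines at 2-fold. Red points are the 42 probe sets at least 1.5-fold above each of the 3 arrays and blue points the 34 at least 1.5-fold below each. The red points reach 2.38 (PDF1.2) and the blue ones -1.17 (AT5G49220).

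Defensin transcripts of the jasmonate and ethylene branch had the largest named difference. PDF1.2, the defensin whose transcript commonly marks that branch, read 178.9 in man, against 27.2 in wat, 39.7 in OMG and 36.0 in DOG. It was at least 5.19-fold above the mean of the 3, and 10.7 times the SD typical of its signal. No other array came near man, since glc read 36.8 and zer 13.8. Among the 4 arrays compared, PDF1.2 reached the array median in man alone. PDF1.2b, its close copy, read 532.8 in man, against 89.5 in wat, 217.0 in OMG and 192.0 in DOG, 3.44-fold above the mean. Here the 3 arrays differed among themselves, with an SD of 0.69 on the log2 scale, and the distance of man from OMG was 2.46-fold. The PDF1.2b probe set is of a kind that can also bind related transcripts, so the copies cannot be told apart by it. In whole seedlings more cells of a type and more RNA per cell cannot be told apart either.

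Other defensin genes did not share this. The list of defensins and thionins had 15 measured genes, of which 8 were bright enough to compare. PDF1.2 and PDF1.2b were the 2 of the 8 that stood above each of the 3 arrays, against 25.7% of all probe sets. Another 4 stood below each, against 31.0%. PDF1.4 read 251.7 in man, against 254.2, 242.0 and 193.5 in wat, OMG and DOG. LCR68 read 604.9 in man, against 712.9, 705.8 and 745.3, and THI2.2, a thionin gene, read 575.5 against 753.1, 657.5 and 618.9. The median difference of the list was -0.05, close to -0.02 over all probe sets compared.

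A second gene annotated as jasmonate-responsive was also high. JRG21, whose name stands for jasmonate-regulated gene, read 53.6 in man, while wat (11.2), OMG (25.9) and DOG (18.1) all lay under the floor, so that it was at least 1.87-fold higher. The jasmonate list itself had 3 measured genes of 20, and beside the 2 defensins the thionin gene THI2.1 was too dim to compare. In the ethylene list EIN3, a transcription factor gene of ethylene signalling, was the 1 measured gene, at 234.7 in man against 209.4, 229.6 and 194.1. The salicylate and defence list had 2 measured genes, WRKY53 and GRX480, both too dim to compare.

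Among genes named only by locus, several were as far from the 3 arrays. AT2G38240 read 161.2 in man, against 61.1 in wat, 51.3 in OMG and 55.6 in DOG, 2.89-fold above the mean. Its signal was lower still in glc (25.7) and in zer (28.8). AT1G10585 read 94.3 in man against 33.6, 35.6 and 46.1, 2.48-fold higher. AT3G23550 read 460.7 in man, against 215.7 in wat, 210.6 in OMG and 207.4 in DOG, 2.18-fold higher. For this gene the 3 arrays lay very close together, with an SD of 0.03 on the log2 scale. AT4G36210 (2.01-fold), AT1G60730 (1.97-fold) and AT3G04000 (1.91-fold) followed. SBT3.5, a gene for a subtilisin-like protease, read 89.2 in man against 44.4, 42.8 and 54.0, 1.91-fold higher. Apart from SBT3.5, the reference table gives these loci no name, so no role is stated for them. A probe set without a name here, 252265_at, read 918.6 in man, against 234.9 in wat, 346.5 in OMG and 240.3 in DOG, 3.41-fold higher. It was also the lowest in zer, at 45.7, and it had the largest ratio to noise of the 42.

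**Figure D2:**
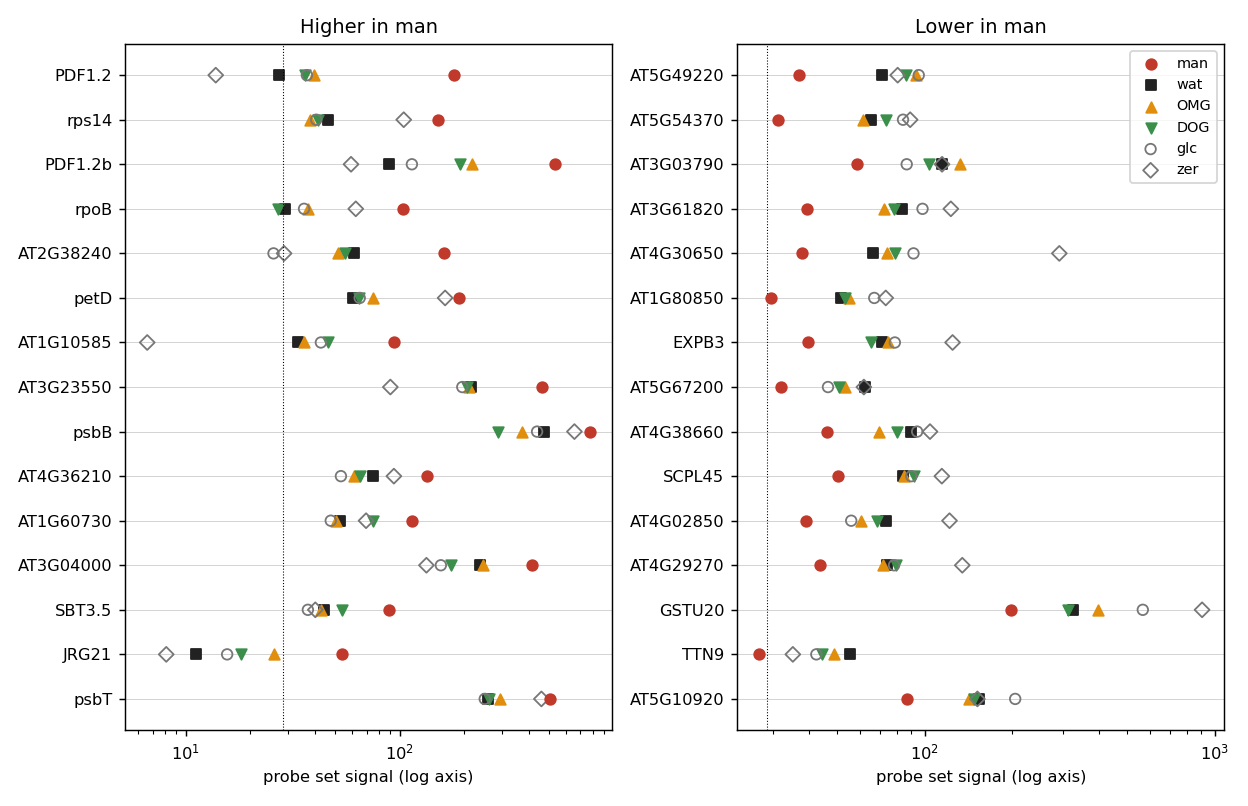
Probe set signal on a log axis for the 15 named genes with the largest differences in each direction; filled symbols are man, wat, OMG and DOG, open symbols are glc and zer, and the dotted line is the floor of 28.6. Man is the highest of the 6 arrays for all 15 genes on the left and the lowest for all 15 on the right.

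Plastid-encoded transcripts were the other group with large differences, but it was a minority of them. All 69 plastid genes with a probe set of their own were bright enough to compare. Of these, 6 were at least 1.5-fold above each of the 3 arrays and 0 were below, against 0.341% and 0.276% of all probe sets compared. The median over the 69 was 0.01, beside -0.02 over all probe sets. The 6 were rps14, rpoB, petD, psbB, psbT and rpl20.

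The plastid rps14 message, for a protein of the small ribosomal subunit, read 151.2 in man, against 46.3 in wat, 38.0 in OMG and 41.3 in DOG, 3.62-fold above the mean. The rpoB message, for a core subunit of the plastid RNA polymerase, read 103.6 in man against 29.0, 37.4 and 26.9, at least 3.30-fold higher. Among the 4 arrays rpoB reached the array median in man alone. The petD message, for subunit IV of the cytochrome b6f complex, read 190.2 in man against 60.2, 74.8 and 64.5, 2.87-fold higher. In each of these 3 the man signal exceeded the highest of wat, OMG and DOG at least 2.54-fold.

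The remaining 3 had smaller folds. The psbB message, for the CP47 antenna protein of photosystem II, read 775.2 in man against 470.6, 372.4 and 286.6, 2.10-fold higher. The psbT message, for a small photosystem II subunit, read 503.8 in man against 258.1, 293.0 and 260.1, 1.87-fold higher. The rpl20 message, for a protein of the large ribosomal subunit, read 383.4 in man against 229.0, 245.7 and 221.4, 1.65-fold higher. Both ycf2 and ndhB, which exist as a pair of copies, were read by probe sets named for both copies, and these also met the rule. The ndhB probe set read 225.6 in man, against 108.0, 84.4 and 66.7, and the ycf2 probe set read 62.1 in man, against 28.7, 28.8 and 29.1.

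Of the 6 genes, psbB and psbT are direct neighbours, and no other protein-coding neighbour of the 6 that was measured met the rule. Outside the 6, ycf2 and ndhB are also neighbouring protein-coding genes, with a tRNA gene between them. The genes psbB, psbT, psbN, psbH, petB and petD follow one another in the plastid genome. The psbN message read 105.5 in man, inside 96.3 to 180.0. The psbH message read 1340.4 in man, inside the 1313.7 to 1446.4 of the 3 arrays, and petB, for cytochrome b6, read 2978.7 in man, inside 2881.4 to 3243.3. On the other side of psbB, clpP, for a subunit of the plastid Clp protease, read 2497.6 in man, below the 2616.0 to 2752.0 of the 3 arrays. Next to rpoB, rpoC1 read 1155.6 in man, inside 1032.1 to 1219.7, and petN, the nearest protein-coding gene on the other side, read 128.0 in man, above the 91.3 to 118.6 of the 3. Next to rps14, psaB, for a photosystem I core protein, read 3276.3 in man, inside 3236.5 to 3613.5. The ndhE message, for a subunit of the plastid NDH complex, read 753.6 in man against 290.8, 420.0 and 520.8. It was 1.45-fold above DOG, and so outside the rule.

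Several of these messages also read high in the zer array, which is not part of the comparison. In zer, rps14 read 104.4, petD 163.0, psbB 655.7, psbT 459.5, rpoB 62.3 and rpl20 409.5. In glc they read 40.7, 65.0, 438.7, 249.7, 35.7 and 286.5. A control probe set for 5S ribosomal RNA, an RNA without a poly(A) tail, read 40.8 in man, against 19.2 in wat, 21.6 in OMG and 15.5 in DOG, with 26.0 in zer and 15.2 in glc. With the floor applied that is at least 1.43-fold over each of the 3. The control for 25S ribosomal RNA was under the floor on all 4 arrays. Of 11 measured mitochondrial genes 3 were bright enough to compare. Among them nad4 read 223.6 in man against 190.1, 180.9 and 170.0, nad1 read 42.0 against 39.7, 38.4 and 38.3, and cox1 read 82.2, inside the 70.8 to 86.1 of the 3 arrays. Of the 4 arrays, nad1 reached the array median in man alone. The part of the 5S ribosomal RNA difference in the plastid result was not tested. Without the probe sets named for plastid genes, 11 probe sets were at least 2-fold higher in man and 34 were 1.5-fold above each of the 3 arrays. Unnamed probe sets stayed in these counts, and their origin was not tested.

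**Figure D3:**
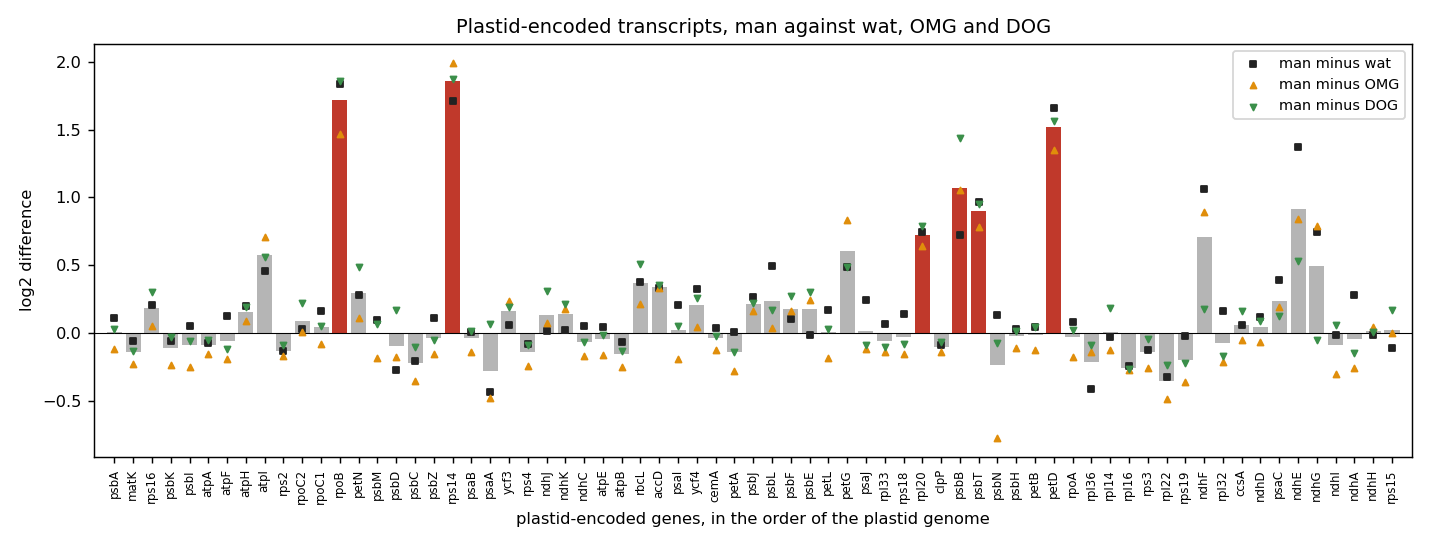
Bars give the log2 difference of man from the mean of wat, OMG and DOG for 69 plastid-encoded genes in genome order, and symbols give man minus each of the 3 arrays. The 6 red bars are the genes at least 1.5-fold above each array, from rpl20 (0.73) to rps14 (1.86); most other bars stay close to 0.

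Transcripts of the low-energy programme stood slightly but broadly higher in man. The sugar starvation list had 11 measured genes of 27, of which 10 were bright enough to compare. Of these, 9 stood above each of the 3 arrays and 0 below, against 25.7% and 31.0% of all probe sets compared. None reached 1.5-fold from each array. The median difference was 0.21, beside -0.02 over all probe sets, and this list was already known to lie apart in man from earlier results of these data.

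MGL, methionine gamma-lyase, had the largest difference of the list. It read 182.7 in man, against 123.6 in wat, 101.2 in OMG and 80.7 in DOG, 1.82-fold above the mean and 1.48-fold above wat. GAT1_2.1, a glutamine amidotransferase-like gene, read 791.3 in man against 508.6, 586.0 and 532.8, 1.46-fold higher. Its second, dimmer probe set did not, at 32.2 in man against 27.2, 43.3 and 25.8. ASPGB1, an asparaginase gene, read 233.6 in man against 186.7, 194.3 and 199.0.

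The leucine breakdown genes were higher by small amounts. IVD, isovaleryl-CoA dehydrogenase, read 555.7 in man against 484.5, 466.2 and 457.1. MCCA and MCCB, which together form methylcrotonyl-CoA carboxylase, read 833.0 and 762.7 in man; the 3 arrays ran from 697.0 to 737.0 for MCCA and from 625.9 to 731.1 for MCCB. AKINBETA1, a regulatory subunit of SnRK1, read 629.4 in man against 569.3, 541.1 and 523.4. BZIP53, a transcription factor gene of low-energy signalling, read 517.2 against 463.9, 470.9 and 487.0. AT3G15450 was the exception, at 3009.9 in man inside a range of 2793.4 to 3248.4. For all 9 genes above the 3 arrays, man was also above glc and zer. MCCA, for example, read 142.7 in glc and 369.6 in zer.

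The measured autophagy genes, ATG8 family members and ATG3 only, showed the same small step with no exception. ATG8 is a ubiquitin-like protein that is attached to the growing autophagosome membrane, and ATG3 is an enzyme of that attachment. All 10 measured genes of the list, 9 ATG8 family members and ATG3, stood above each of wat, OMG and DOG in man, against 25.7% of all probe sets. Their differences ran from 0.11 (ATG3) to 0.31 (APG8A), with a median of 0.19. APG8A read 268.8 in man against 211.4, 231.5 and 207.0. ATG8B read 144.4 in man against 114.0, 119.5 and 120.0, and ATG8F, the brightest, read 1128.5 against 994.0, 1017.7 and 1050.3. None of the 10 was 1.5-fold from each array, and ATG8 family members are related in sequence, so their readings need not be independent. ATG8E is also a member of the sugar starvation list, so the counts of these lists share that gene. The count was 10 of 10 also after quantile normalization and with equal medians. Leaving out 1 of the 3 arrays cannot lower this count, so it is no check.

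Abscisic acid and osmotic stress genes were sparsely measured. The list had 6 measured genes of 33, and 4 could be compared. All 4 differences were positive, with a median of 0.27, and 2 of the 4 stood above each of the 3 arrays, against 25.7% of all probe sets. HIS1-3, a linker histone gene induced by water deficit, read 126.5 in man against 78.1, 89.2 and 65.6, 1.64-fold above the mean and 1.42-fold above OMG. COR15B, a cold- and dehydration-induced gene for a chloroplast protein, read 51.7 in man against 37.4, 39.9 and 36.6. Among the 4 arrays COR15B reached the array median in man alone. With the median required in all 4 arrays, 3 genes of the list were left, 1 above each array, and their median was 0.09. The dehydrin gene COR47 read 990.3 in man, inside a range of 893.2 to 997.0, and LTI30, also a dehydrin gene, read 261.7 in man, inside 231.0 to 288.9. The remaining pair, COR15A and LEA4-5, was too dim to compare. CML41, a calmodulin-like gene, read 143.9 in man and 145.1 in DOG, with 60.6 in wat and 104.5 in OMG, so it does not set man apart from DOG. STZ, a zinc finger gene of stress responses, read 198.8 in man against 141.3, 164.6 and 172.3.

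Genes that handle mannose, ascorbate and polyols stayed close to the 3 arrays. All 5 measured genes of 13 could be compared, and their differences ran from -0.08 to 0.11. PMM, the phosphomannomutase that leads mannose 6-phosphate toward ascorbate, read 374.2 in man against 378.8, 382.5 and 375.6. GME, GDP-mannose epimerase, read 998.2 in man, inside a range of 934.0 to 1022.5. GLDH, the last enzyme of ascorbate synthesis, read 139.6 in man, inside 126.8 to 177.7.

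Sugar transporters were split. Of 19 measured genes 9 could be compared, with a median of 0.00. Of the 9, 4 stood above each of the 3 arrays and 2 below, against 25.7% and 31.0% of all probe sets. SWEET2, a vacuolar sugar transporter gene, read 448.8 in man against 395.1, 373.1 and 343.9. TMT1, a tonoplast sugar importer gene, read 364.6 in man against 315.8, 311.1 and 342.4. SWEET17, a vacuolar fructose transporter gene, lay on the other side, at 158.2 in man against 190.8, 186.0 and 199.9.

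Genes for enzymes that modify small molecules included several with higher readings in man. UDP glycosyltransferases attach sugars to hormones and defence compounds. Of 47 measured, 23 could be compared; 15 stood above each of the 3 arrays and 2 below, against 25.7% and 31.0% of all probe sets, with a median of 0.14. UGT73B5 read 63.2 in man, against 39.7 in wat, 24.4 in OMG and 36.8 in DOG, at least 1.82-fold higher, and was the 1 member past 1.5-fold from each. UGT71C2 read 42.1 in man, with wat (27.1), OMG (23.3) and DOG (27.3) under the floor. Among the 4 arrays UGT73B5 and UGT71C2 reached the array median in man alone, so they were compared only because man was high. With the median required in all 4 arrays, 13 of 18 stood above each array and 1 below. The shares over all probe sets were then 26.4% and 31.5%. UGT85A2 read 135.6 in man against 74.7, 114.2 and 98.8, and UGT73C1 read 95.6 against 68.7, 68.5 and 77.2. On the lower side UGT72E2 read 37.4 in man against 52.8, 45.6 and 55.2.

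The P450 list held 24 measured genes, and 9 could be compared, all of the CYP71B family. Of these, 4 stood above each array and 0 below, against 25.7% and 31.0% of all probe sets, with a median of 0.23. Without OMG 8 of the 9 stood above both remaining arrays, against 31.75% of all probe sets. CYP71B23 read 192.7 in man against 142.0, 137.9 and 156.0, and CYP71B6 read 344.2 against 258.3, 288.2 and 291.0. Tau-class glutathione transferases, which attach glutathione to toxic compounds, went both ways. GSTU16 read 227.0 in man against 177.6, 166.7 and 177.2. GSTU20 read 198.9 in man, against 323.9 in wat, 395.0 in OMG and 312.5 in DOG, 1.72-fold below the mean. It read 565.3 in glc and 905.2 in zer, so man was the lowest of the 6 arrays.

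**Figure D4:**
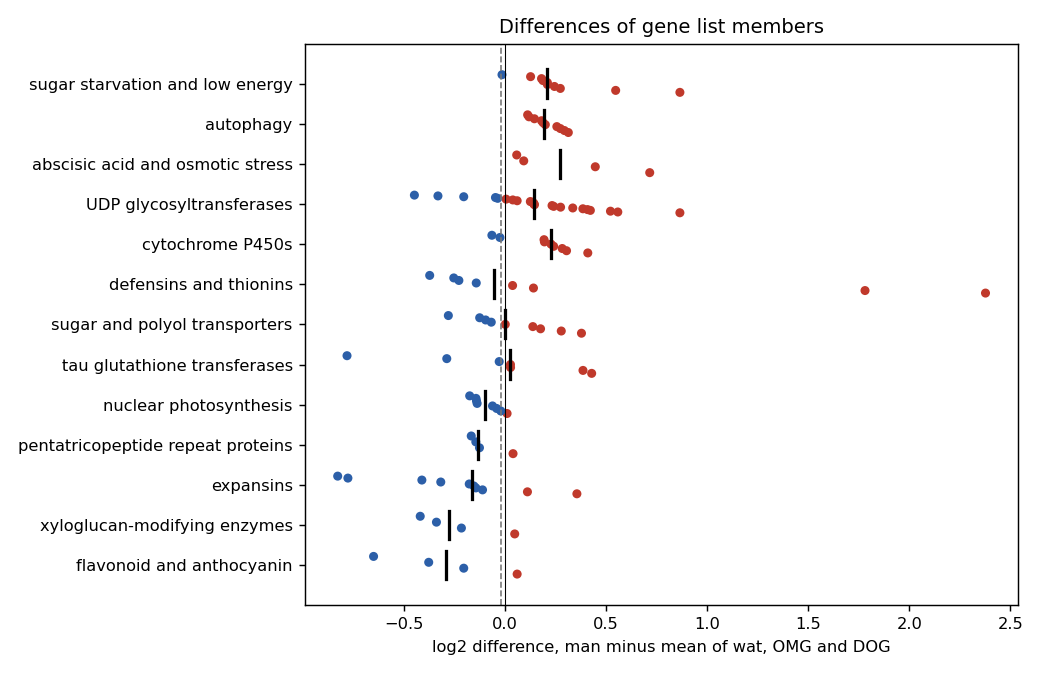
Each point is 1 compared member of a gene list, placed by its log2 difference of man from the mean of wat, OMG and DOG; black bars are list medians and the dashed line is the median of all probe sets compared (-0.02). All 10 autophagy genes lie to the right of 0, and 8 of the 10 expansin genes lie to the left.

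Among cell wall genes 1 was past the 1.5-fold rule, on the lower side. Expansins loosen the wall during cell growth, and 10 of 18 measured expansin genes could be compared; 4 stood below each of the 3 arrays and 1 above, against 31.0% and 25.7% of all probe sets, with a median of -0.17. Against single arrays the median was 0.02 for wat, -0.23 for OMG and -0.42 for DOG. EXPB3, a beta-expansin gene, read 39.6 in man, against 71.1 in wat, 74.8 in OMG and 65.3 in DOG, 1.78-fold below the mean. EXPA15, an alpha-expansin gene, read 70.6 in man against 157.9, 102.0 and 110.0, 1.71-fold below the mean and 1.44-fold below OMG. EXPA4 read 49.0 in man against 61.2, 67.5 and 67.0. EXPA7, expressed in root hairs, was the 1 above each array, at 43.4 in man against 28.4 to 39.0 in the 3. It was compared only because man was high, since it reached the array median in man alone. With the median required in all 4 arrays, 5 genes were left, 3 below each array and 0 above. The shares over all probe sets were then 31.5% and 26.4%. Without wat the median was -0.28 and 9 of 10 stood below both remaining arrays, against 40.2% of all probe sets. Without DOG the median was -0.08 with 4 of 9 below both, against 37.8%.

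Xyloglucan-modifying enzymes had 9 measured genes and 4 compared, with 2 below each array, against 31.0% of all probe sets. Their median was 0.05 against wat, -0.20 against OMG and -0.41 against DOG. XTH16 read 192.6 in man against 244.1, 233.8 and 253.5. XTH18 read 215.1 in man, between wat (163.1) and OMG (252.2), while DOG read 578.9, and its SD over the 3 arrays was 0.93 on the log2 scale. Of 7 compared genes for cellulose synthase-like and pectin enzymes, 2 stood above each array and 2 below, with a median of -0.08. The shares over all probe sets were 25.7% and 31.0%. CSLC6, a gene for a glucan synthase-like protein, read 44.7 in man against 62.5, 60.5 and 60.3. ATPMEPCRB, a pectin methylesterase gene, read 88.7 in man against 63.1, 58.1 and 66.6.

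The lower side consisted mostly of dim, singly named transcripts. AT5G49220 read 37.0 in man, against 71.3 in wat, 93.5 in OMG and 86.1 in DOG, 2.25-fold below the mean. AT5G54370 read 31.3 in man against 65.5, 61.4 and 73.8, 2.13-fold below. AT3G61820 read 39.4 in man against 83.8, 72.2 and 78.1, 1.98-fold below, and AT4G30650 read 37.8 against 66.4, 74.2 and 78.9, 1.93-fold below. AT4G30650 read 291.3 in zer, far above the other 5 arrays. SCPL45, a serine carboxypeptidase-like gene, read 50.3 in man against 83.9, 84.9 and 92.0, 1.73-fold below. TTN9, named for a titan embryo mutant, read 26.9 in man, under the floor, against 55.2, 48.5 and 44.2, at least 1.72-fold below. Among probe sets without a name here, 252184_at read 52.2 in man against 108.9, 99.3 and 110.3, 2.03-fold below, and 252965_at read 45.1 against 71.4, 104.9 and 97.8.

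Pigment and photosynthesis genes differed by small amounts. Flavonoid and anthocyanin genes had 5 measured of 17 and 4 compared, with a median of -0.29. Of the 4, 3 stood below each array, against 31.0% of all probe sets. AT1G06000 read 70.9 in man against 180.3, 96.5 and 79.2, an SD of 0.62 among the 3 arrays, and lay 1.12-fold below DOG. DFR, dihydroflavonol reductase, read 36.5 in man against 40.6, 48.1 and 54.6. Of the 8 nuclear photosynthesis genes, 4 stood below each array and 0 above, against 31.0% and 25.7% of all probe sets, with a median of -0.10. Without OMG the median was -0.05 and 2 of the 8 stood above both remaining arrays, against 31.75% of all probe sets. LHCB4.1, a minor antenna protein gene of photosystem II, read 2836.9 in man against 3043.4, 3302.8 and 3026.9. Of 4 compared genes for pentatricopeptide repeat proteins, which process organelle RNA, 3 stood below each array with a median of -0.14. The share below each over all probe sets was 31.0%. Under quantile normalization, and likewise with equal medians, 2 of the 4 stood below each. CRR21 read 46.8 in man against 53.8, 50.7 and 53.2.

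The remaining lists held few compared genes. WRKY transcription factors had 4, with 2 below each array, against 31.0% of all probe sets, and a median of -0.14. Auxin response genes had 3, all above each array, against 25.7% of all probe sets, with a median of 0.09. Of these, GH3.3 was compared only because man was high, since it reached the array median in man alone. With the median required in all 4 arrays 2 were left, both above each array, with a median of 0.08. The hexose and sucrose list had 2, both above each array, against 25.7% of all probe sets, with a median of 0.19. PRXR1, the 1 peroxidase gene compared, read 1273.3 in man against 1471.8, 1549.4 and 1432.0. The iron deficiency and clock lists had 1 gene each, both at -0.11. The heat shock list had 1 measured gene, too dim to compare, and 7 lists had no measured gene.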

How the data were processed

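The deposited values are probe set intensity signals on a linear scale, 1 column per array, made by the authors with MAS5 per the submitters' processing notes. The sources used here give no version, settings or genome build. In each column the mean, trimmed by 2% at both ends, lay at 100, so equal total signal was assumed. The 64 control probe sets were left out of 22810. Groups come from the sample titles. Python 3.11.15 with pandas 2.3.3 and numpy 2.4.6 was used. The comparison was tested on simulated data, with changes planted only where wat, OMG and DOG each read at least 100. Planted changes at dimmer signals, where most calls lay, were not covered, and a pass was required only for the planted higher changes.

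Names come from the platform annotation, updated through the RefSeq table of TAIR10.1. Single genes were named for 13513 probe sets (13436 matched), several for 503, and 8730 are unnamed here. Of 207 list entries given by locus, 42 were measured, meaning that a probe set was named for that gene alone. For a gene with several probe sets the brightest was used. The members and lists were chosen with earlier results of these data known, and genes of other families that share a symbol pattern (cyclophilins, peptide deformylases and the like) were removed after their values were seen. Named genes are the 15 largest differences each way that were 1.5-fold from each of the 3 arrays, up to 4 members per list, and up to 2 unnamed probe sets each way; other named genes were chosen after their values were seen. Alternatives changed the scaling, floor, filter, summary and arrays. For arrays, their number limits the precision.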

Additional observations from a re-analysis of the deposited data

Results flagged for a closer look

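The control probe sets were not part of the comparison. On the signals as deposited, with no floor, 1 of the 64 read above 28.6 in man and at least 1.5-fold above each of wat, OMG and DOG. It was the probe set for 5S ribosomal RNA, at 40.8 in man against 19.2, 21.6 and 15.5. The 3 arrays lay under the floor, and with the floor applied the fold over each was at least 1.43, short of 1.5.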

How the results depend on the processing

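With signals at or above the median required in all 4 arrays, the counts were 9 higher and 1 lower at 2-fold, 23 higher and 16 lower at 1.5-fold from each array, and 6 in place of 11 list members; 10458 probe sets were then compared. With no floor the counts were 25 higher and 10 lower at 2-fold, and 46 higher and 54 lower at 1.5-fold from each. A floor at the 20th percentile gave 24 higher and 10 lower, and 46 higher and 54 lower. Leaving out 1 of the 3 arrays gave 17 to 22 higher and 3 to 6 lower at 2-fold, and 61 to 80 higher and 66 to 76 lower at 1.5-fold from each, a rule that fewer arrays make easier to meet. Leaving out probe sets named for plastid genes, chosen after seeing the data, gave 11 higher at 2-fold. Under quantile normalization, equal medians and each array's own floor, these 4 counts moved by no more than 1.5 times. With the median of the 3 arrays the counts at 2-fold were 21 higher and 4 lower. That setting cannot change the 1.5-fold counts, which do not use the mean. Dropping the filter cannot change any of the 4 counts, since each called probe set holds a signal above an array median. Equal medians turned the shares of all probe sets above and below each array to 30.8% and 24.6%. The genes named first were checked under all alternatives planned, wherever they passed the filter. There 15 of the 15 higher and 14 of the 15 lower kept 1.5-fold from each array, with AT4G38660 the exception. Only the changes of scaling could bring a gene under 1.5-fold. The other alternatives keep or widen the distance to the nearest array, so keeping 1.5-fold under them is no check. PDF1.2, rps14, rpoB, AT1G10585 and JRG21 did not pass the filter in all 4 arrays and were not compared under it. The same holds for lower genes that read under the man median of 40.3. The sign of the list medians of tau glutathione transferases, sugar transporters, plastid genes, defensins, root markers and mannose-related genes turned when 1 array was left out, and that of the mannose-related genes also under quantile normalization and the median of the 3 arrays; the cause was not tested. No paired analysis was possible because each group has 1 array. Low signal limits the lower side, where man readings lay near the floor of 28.6.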
